A study of Homo sapiens with 12 samples.

Results

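Aldo-keto reductases, aldehyde dehydrogenases, glutathione transferase pi and the ABC efflux pumps of the C subfamily were followed as a group of 10 genes: AKR1B10, AKR1C1, AKR1C2, AKR1C3, ALDH1A1, ALDH3A1, GSTP1, ABCC1, ABCC2 and ABCC3. They were taken by gene symbol and are 10 of the 16599 genes in the count table. The study measured polyadenylated RNA of 2 established human lung cancer cell lines, H1650 and A549. Each line was sequenced while over-expressing the splicing factor SRSF2 and untreated, with 3 libraries in each of the 4 groups: H1650 SRSF2, H1650 untreated, A549 SRSF2 and A549 untreated. The untreated libraries carry the letters NC in their titles, which are not explained, so it is not certain whether these cells received an empty construct. How SRSF2 was introduced and whether the cells are 1 clone or a pool are not given in the sources used here. SRSF2 transcripts were not analysed here, so the labelled over-expression was not checked. Whether the replicates were separate cultures is not stated either, so p-values measure only the spread between these libraries, which may be technical.

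Total counts ran from 23876899 to 32079027 per library, and levels are given as CPM (counts per 1000000 counts, scaled by TMM factors). The keratin genes KRT8 and KRT18 were abundant in every group, whereas the epithelial adhesion genes EPCAM and CDH1 were high in H1650 and low in A549: EPCAM lay at 296 to 374 CPM in H1650 libraries against 3.3 to 6.17 CPM in A549 libraries. Marker sums are in CPM without TMM factors. Summed epithelial markers (6 of 6 in the table) lay between 9325 and 10460 CPM in all groups. Only 2 of 6 fibroblast, 1 of 6 leukocyte, 0 of 4 endothelial and 0 of 3 erythroid markers were in the table, at sums of at most 22.7 CPM. All 10 genes passed the filter on low counts, but ALDH3A1 and GSTP1 passed only through their A549 levels, and the other 8 also passed on the H1650 libraries alone. Of these 8, AKR1B10 and AKR1C2 passed there through their untreated libraries and not through their SRSF2 libraries.

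Aldo-keto reductases use NADPH to reduce aldehydes and ketones to alcohols, and the AKR1C enzymes also act on steroids and prostaglandins. Aldehyde dehydrogenases oxidise aldehydes to acids, GSTP1 joins glutathione to reactive compounds, and the ABCC proteins pump such conjugates and several cancer drugs out of the cell. Many of these genes are known targets of the transcription factor NRF2 (gene NFE2L2), which binds antioxidant response elements and is held in check by KEAP1.

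Upstream sequences from RefSeq (GRCh38.p14, the 250 bases before the annotated start) were found for 6 of the 10 genes. The GSTP1 sequence is shown because GSTP1 was the gene nearest to absence in H1650, and the AKR1C sequences because these neighbouring genes responded unequally there. Capitals in GSTP1 mark the letters TGACTCAGC.
GSTP1: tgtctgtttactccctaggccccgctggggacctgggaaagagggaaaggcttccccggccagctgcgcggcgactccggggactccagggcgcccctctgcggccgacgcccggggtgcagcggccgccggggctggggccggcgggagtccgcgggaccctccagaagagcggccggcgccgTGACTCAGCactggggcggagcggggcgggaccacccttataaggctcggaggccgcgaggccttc
AKR1C1: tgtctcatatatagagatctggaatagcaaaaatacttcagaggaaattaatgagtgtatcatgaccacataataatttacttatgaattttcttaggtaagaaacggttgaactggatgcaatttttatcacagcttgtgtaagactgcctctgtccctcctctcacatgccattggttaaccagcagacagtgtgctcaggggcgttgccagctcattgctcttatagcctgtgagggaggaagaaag
AKR1C2: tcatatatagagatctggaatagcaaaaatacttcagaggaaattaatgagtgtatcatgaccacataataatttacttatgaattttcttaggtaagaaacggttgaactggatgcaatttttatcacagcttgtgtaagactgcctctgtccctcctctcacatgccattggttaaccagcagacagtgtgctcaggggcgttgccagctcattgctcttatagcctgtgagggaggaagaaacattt
AKR1C3: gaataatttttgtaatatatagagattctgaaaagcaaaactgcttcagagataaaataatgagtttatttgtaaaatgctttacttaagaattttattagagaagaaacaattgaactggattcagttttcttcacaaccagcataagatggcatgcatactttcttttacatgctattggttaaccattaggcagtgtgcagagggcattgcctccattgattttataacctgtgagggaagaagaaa
GSTP1 lies at chr11:67583562-67583811 (plus strand), AKR1C1 at chr10:4963165-4963414 (plus), AKR1C2 at chr10:5003858-5004107 (minus) and AKR1C3 at chr10:5048531-5048780 (plus, the first of 2 entries). Both strands were searched for the antioxidant response element core TGACNNNGC, the AP-1 site TGANTCA, the TATA box TATAAA and the CCAAT box. Within the GSTP1 sequence the element core and the AP-1 letters overlap, both beginning 66 bases before the start. Of 35116 human upstream windows of this length, 10.9% hold the element core, 6.57% the AP-1 letters, 10.7% TATAAA and 32.0% CCAAT. The GSTP1 window also has 28 CG dinucleotides, against a median of 11 over all windows. AKR1C1 and AKR1C2 were identical at 96.5% of aligned positions, whereas AKR1C3 matched AKR1C1 at 72.4% and AKR1C2 at 70.6%. Each of the AKR1C windows holds a CCAAT match on the other strand, and the AKR1C3 window also holds a TATAAA match on the other strand, 26 bases before the start. GENCODE 29 places the first bases of GSTP1 and AKR1C1 inside these windows. The AKR1C2 and AKR1C3 windows lie wholly within the genes as GENCODE 29 bounds them (4987400 to 5018031 and 5035354 to 5107686), so they are upstream of the RefSeq start only. The matches are letters only and say nothing of binding in either line.

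All 10 genes were lower in H1650 than in A549, and the size of the gap divided them into 3 ranges. GSTP1, ALDH3A1, ALDH1A1, AKR1B10 and AKR1C2 had at most 34 counts in any H1650 library, with GSTP1 and ALDH3A1 the nearest to the floor of 3 counts. AKR1C1, AKR1C3 and ABCC2 were low but counted at 35 to 292 counts per library, and ABCC1 and ABCC3 were well expressed in both lines. Together the 10 genes took 0.0341 to 0.0357% of all counts in H1650 SRSF2 libraries, 0.0487 to 0.0519% in H1650 untreated, 1.94 to 1.98% in A549 SRSF2 and 2.30 to 2.31% in A549 untreated. In edgeR's quasi-likelihood test, all 8 genes that passed the filter on H1650 libraries alone were called lower in H1650 at an adjusted p under 0.05 in untreated cells. They were called lower in SRSF2 cells too. There AKR1B10 and AKR1C2 add no support, since they did not pass the filter through their H1650 SRSF2 libraries. GSTP1 and ALDH3A1, kept by the filter only for their A549 levels, had to differ and are given as values only. Over all 15991 genes tested, 82.4% were called between the untreated lines (40.1% higher and 42.3% lower in H1650) and 84.2% between the SRSF2 lines (40.5% higher and 43.7% lower). Groups without overlap and lower in H1650 were found for these 8 genes as well, with the same limit for AKR1B10 and AKR1C2 in SRSF2 cells. Over all genes this held for 43.1% in untreated and 43.5% in SRSF2 cells. The median log2 fold change of the 8 genes, H1650 over A549, was -8.55 in untreated cells, against -0.04 over all genes.

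**Figure D1:**
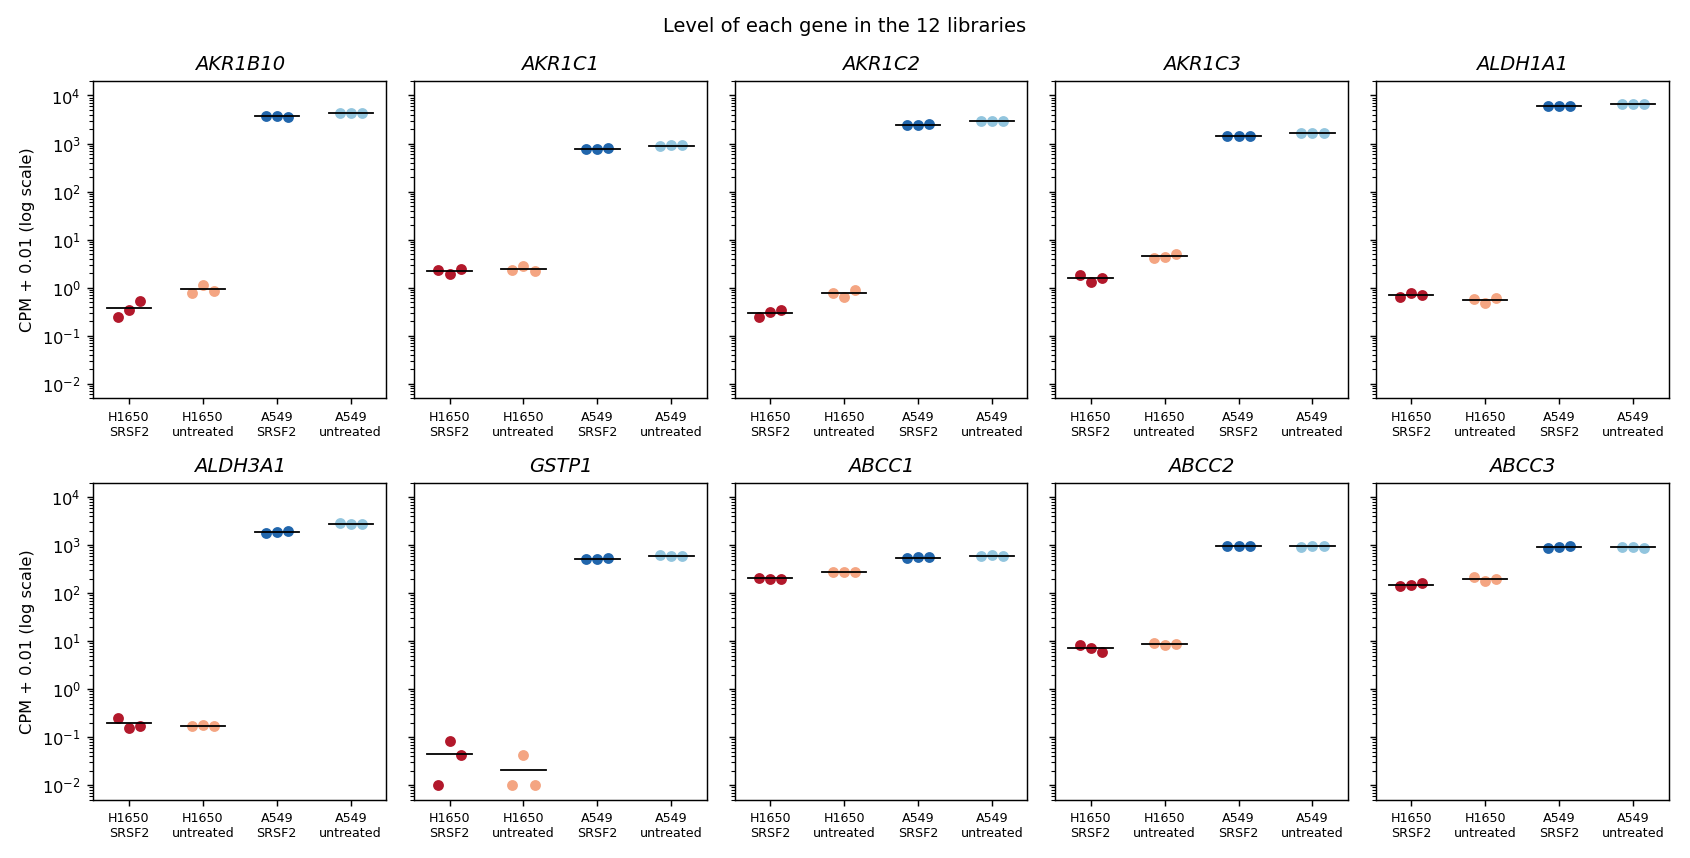
CPM plus 0.01 of each gene (y axis, log scale) in the 3 libraries of each group, with points for libraries and a bar for the group mean. Every H1650 point lies below every A549 point, with ABCC1 and ABCC3 the nearest to each other and GSTP1 the furthest apart.

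GSTP1, the pi-class enzyme that conjugates glutathione (ENSG00000084207, GRCh38 chromosome 11, 67583595 to 67586656), had 0, 2 and 1 counts in the H1650 SRSF2 libraries and 0, 1 and 0 counts in the untreated H1650 libraries. In A549 it had 12499, 14937 and 13675 counts in SRSF2 and 17626, 16886 and 17818 counts in untreated libraries. The untreated H1650 level was 0.00176% of the A549 level (95% exact binomial interval 4.45e-05 to 0.0098%), from 1 count, and the SRSF2 level 0.00642% (0.00132 to 0.0188%), from 3 counts. Percentages of the A549 level, here and below, are summed counts over summed total counts, without the TMM factors used for CPM. These intervals, like all those on line ratios, cover counting error only. Expression of GSTP1 in H1650 was not detectable beyond the floor of 3 counts at this depth.

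ALDH3A1, an aldehyde dehydrogenase known from cornea and smoke-exposed airway (ENSG00000108602, chromosome 17, 19737984 to 19748943), had 4 to 6 counts in the H1650 libraries of either treatment, and 43606 to 82008 counts in A549 libraries. Its untreated H1650 level was 0.00567% of A549 (0.00318 to 0.00936%). ALDH1A1, which makes retinoic acid from retinal and is often used as a stem cell marker (ENSG00000165092, chromosome 9, 72900662 to 73080442), had 16, 20 and 21 counts in H1650 SRSF2 and 18, 14 and 18 counts in untreated H1650 libraries. In untreated cells this was 0.008% of A549 (0.00594 to 0.0105%), where ALDH1A1 was the most abundant of the 10 genes with 6662 ± 74.9 CPM (SD, n = 3).

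AKR1B10, a reductase of retinal and other aldehydes (ENSG00000198074, chromosome 7, 134527592 to 134541408), stood at 0.0202% of the A549 level in untreated H1650 cells (0.0161 to 0.025%), and AKR1C2 at 0.0253% (0.0197 to 0.0321%). AKR1C1 and AKR1C3 were nearer to A549, at 0.257% (0.224 to 0.293%) and 0.262% (0.238 to 0.289%). These intervals do not overlap those of AKR1B10 and AKR1C2. Carry-over of reads between libraries of the lines was not tested.

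ABCC2, an apical pump for conjugates such as bilirubin glucuronide (ENSG00000023839, chromosome 10, 99782640 to 99852594), averaged 8.74 ± 0.568 CPM in untreated H1650 and 947.6 ± 18.5 CPM in untreated A549 cells. By summed counts without TMM factors, untreated H1650 stood at 0.898% of the A549 level of ABCC2 (0.836 to 0.963%). ABCC3, a basolateral pump of the family (ENSG00000108846, chromosome 17, 50634777 to 50692252), averaged 202.1 ± 19.6 CPM in untreated H1650 and 908.7 ± 26.0 CPM in untreated A549 cells. ABCC1, also known as multidrug resistance-associated protein (ENSG00000103222, chromosome 16, 15949577 to 16143074), averaged 281.0 ± 2.12 CPM in untreated H1650 and 609.0 ± 1.72 CPM in untreated A549 cells (log2 -1.12, SE 0.03). By summed counts without TMM factors, untreated H1650 held 21.7% of the A549 level of ABCC3 and 44.9% of that of ABCC1. The edgeR fit with TMM put ABCC3 77.8% and ABCC1 53.9% lower in untreated H1650. No H1650 library reached an A549 library for either gene.

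**Figure D2:**
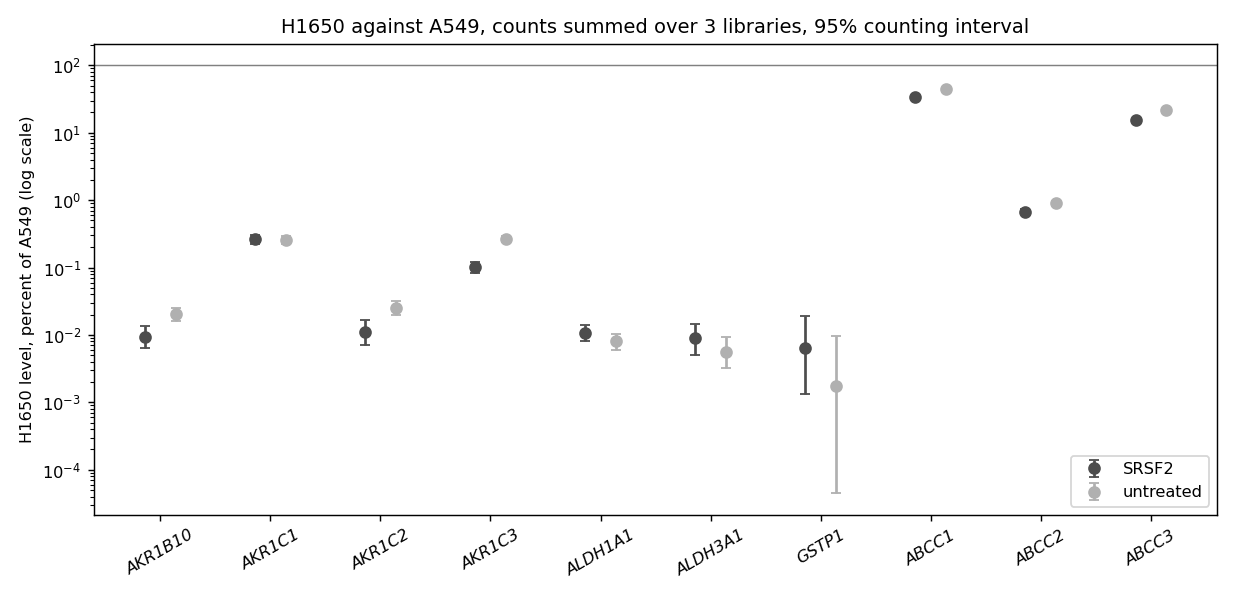
H1650 level as a percentage of the A549 level (y axis, log scale) for each gene, from counts summed over the 3 libraries of each group, for SRSF2 (dark) and untreated (light) cells. Summed counts are divided by summed total counts, without TMM factors. Bars are 95% exact binomial intervals, and the grey line marks equal levels. The genes spread from 0.00176% (GSTP1, untreated) to 44.9% (ABCC1, untreated).

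Per kilobase of the longest principal transcript in GENCODE 29, ALDH1A1 led in untreated A549 cells with 3162 CPM per kilobase. AKR1B10 (2758), ALDH3A1 (1464), AKR1C3 (922), AKR1C2 (773) and GSTP1 (631) followed on the same scale, then ABCC2 (163), ABCC3 (159), AKR1C1 (135.5) and ABCC1 (93.0). The order was the same in A549 SRSF2 cells, and ABCC2 and ABCC3 did not differ beyond their spread in the untreated libraries. In untreated H1650 cells ABCC1 (42.9) and ABCC3 (35.4) led, ahead of AKR1C3 (2.49) and ABCC2 (1.51). These orders depend on the transcript length used. On the shortest complete coding transcript, ALDH1A1 (8105) still led and ABCC1 (93.0) was still the lowest in untreated A549 cells, but AKR1C2 stood at 2644, ABCC3 at 1385, AKR1C1 at 1059 and ABCC2 at 838.6 CPM per kilobase. In untreated H1650 cells ABCC3 (308) then stood above ABCC1 (42.9).

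In A549, SRSF2 over-expression went with lower levels of 8 of the 10 genes and higher levels of none. ALDH3A1 fell by 33.4%, the aldo-keto reductases by 13.8 to 16.3%, GSTP1 by 13.8%, ALDH1A1 by 10.5% and ABCC1 by 9.74%. ABCC2 and ABCC3 did not pass the test. Over all genes tested, 32.3% were called in this comparison (16.4% higher and 15.9% lower). The median log2 fold change of the 10 genes was -0.21, against 0.00 over all genes. The fold changes here and below come from edgeR with Benjamini-Hochberg adjustment over 15991 genes, and the SE, worked back from the F statistic, is approximate.

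ALDH3A1 had 1782, 1897 and 1954 CPM in A549 SRSF2 libraries, against 2862, 2818 and 2777 CPM in untreated libraries. The groups lay far apart relative to their spread, and this was the largest change of the 10 genes in A549 (log2 -0.59, SE 0.03, edgeR adjusted p = 9.60e-16). An antisense gene, ENSG00000264785, overlaps ALDH3A1 exons and had 195 counts over the A549 SRSF2 libraries and 283 over the untreated ones, a small number beside ALDH3A1's 147952 and 243258. Whether counting used strand is not stated, so reads of the pair cannot be told apart.

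ALDH1A1, the other dehydrogenase, had 5941, 5995 and 5948 CPM in A549 SRSF2 libraries, against 6608, 6630 and 6748 CPM in untreated libraries. All SRSF2 values were below all untreated ones, with a smaller fall than that of ALDH3A1 (log2 -0.16, SE 0.03, edgeR adjusted p = 3.61e-05).

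The reductases moved by similar amounts. AKR1B10 had 3695, 3707 and 3615 CPM in A549 SRSF2 libraries, against 4411, 4409 and 4338 CPM in untreated libraries (log2 -0.26, SE 0.03, edgeR adjusted p = 1.89e-07). AKR1C2 (ENSG00000151632, chromosome 10, 4987400 to 5018031), which inactivates dihydrotestosterone, averaged 2437 ± 47.8 CPM in SRSF2 and 2903 ± 17.8 CPM in untreated cells (log2 -0.25, SE 0.03, edgeR adjusted p = 5.71e-08). AKR1C3 (ENSG00000196139, chromosome 10, 5035354 to 5107686), an androgen- and prostaglandin-forming reductase, averaged 1434 ± 13.1 CPM in SRSF2 and 1666 ± 15.7 CPM in untreated cells (log2 -0.22, SE 0.03, edgeR adjusted p = 6.70e-06). AKR1C1 (ENSG00000187134, chromosome 10, 4963253 to 4983283), which inactivates progesterone, averaged 783.4 ± 24.2 CPM in SRSF2 and 908.5 ± 3.52 CPM in untreated cells (log2 -0.21, SE 0.04, edgeR adjusted p = 1.18e-05). Each of these genes was lower in 3 of 3 SRSF2 libraries than in any untreated library. For comparison, groups without overlap and lower in SRSF2 cells were found for 23.0% of all genes tested in A549.

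GSTP1 had 510.9, 519.3 and 536.8 CPM in A549 SRSF2 libraries, against 615.0, 596.8 and 607.1 CPM in untreated libraries, again without overlap (log2 -0.22, SE 0.04, edgeR adjusted p = 2.27e-05).

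Of the pumps, ABCC1 had 534.1, 554.7 and 560.2 CPM in A549 SRSF2 libraries, against 607.3, 610.7 and 609.2 CPM in untreated libraries (log2 -0.15, SE 0.03, edgeR adjusted p = 8.99e-04). ABCC2 averaged 970.5 ± 12.7 CPM in SRSF2 and 947.6 ± 18.5 CPM in untreated cells (log2 0.03, SE 0.04, edgeR adjusted p = 0.554). ABCC3 averaged 920.7 ± 58.0 CPM in SRSF2 and 908.7 ± 26.0 CPM in untreated cells (log2 0.02, SE 0.05, edgeR adjusted p = 0.808). The SRSF2 and untreated libraries overlapped for ABCC2 and ABCC3, and the sign of the ABCC3 value turned with the scaling of the libraries.

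**Figure D3:**
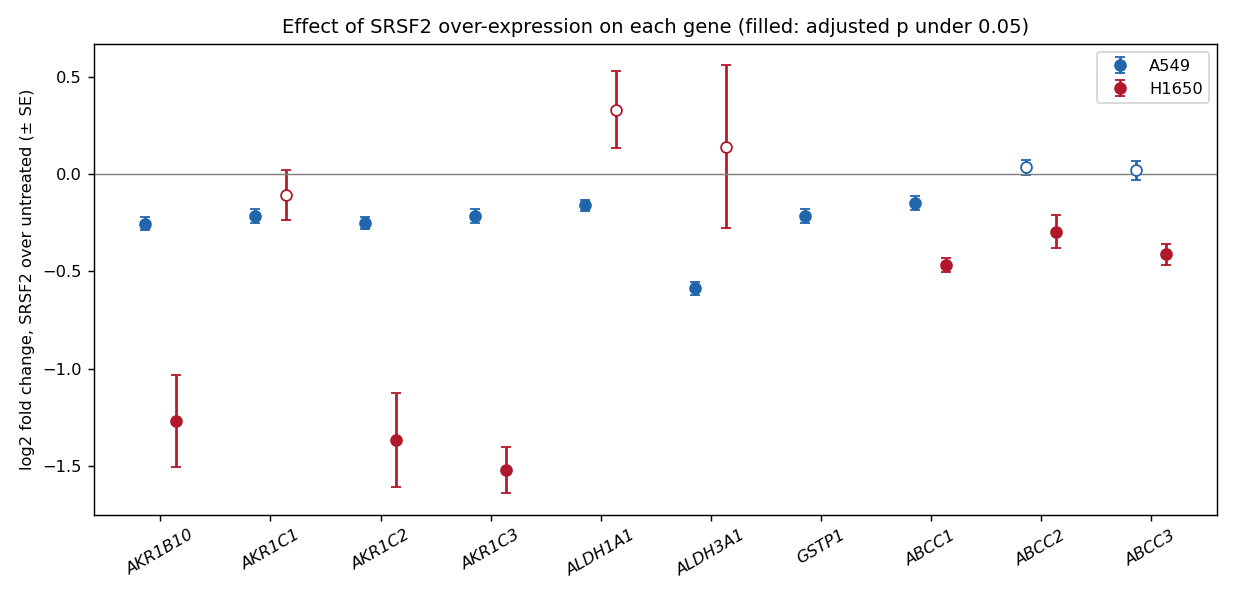
Log2 fold change of each gene, SRSF2 over untreated (y axis, ± SE), in A549 (blue, left of each pair) and H1650 (red). Filled points passed an edgeR adjusted p of 0.05. GSTP1 is not drawn for H1650, where it was at or under the floor of 3 counts. No filled point lies above 0, and the H1650 values of AKR1B10, AKR1C2 and AKR1C3 lie below -1.

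In H1650, 6 of the 10 genes were called lower in SRSF2 cells and none higher: ABCC1, ABCC2, ABCC3, AKR1B10, AKR1C2 and AKR1C3. The pumps ABCC1 and ABCC3 fell by 27.6% and 24.9% at levels of 143.2 to 282.8 CPM, whereas the reductases fell by 58.5 to 65.2% at levels of at most 5.06 CPM. AKR1C1, ALDH1A1 and ALDH3A1 did not pass the test. In this line 62.3% of all genes tested were called (31.0% higher and 31.3% lower), so 6 of 10 is no more than the share of all genes called in either direction. All 6 were lower, and the share of all genes called lower was 31.3%. Fitted on the H1650 groups alone, 6 of the 8 genes tested were called, beside 9479 of 14506 genes. In that fit AKR1B10 and AKR1C2, with 6 to 16 and 6 to 10 counts in SRSF2 libraries, passed the filter through their untreated libraries. A gene kept that way leans towards a fall, so their calls in that fit add no support. The median log2 fold change was -0.41 over the 9 genes other than GSTP1, against 0.00 over all genes.

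ABCC1 had 212.0, 199.4 and 198.7 CPM in H1650 SRSF2 libraries, against 278.7, 282.8 and 281.6 CPM in untreated libraries. The groups were well separated (log2 -0.47, SE 0.04, edgeR adjusted p = 1.17e-13). ABCC3 had 143.2, 148.5 and 163.6 CPM in H1650 SRSF2 libraries, against 222.5, 183.5 and 200.3 CPM in untreated libraries, also without overlap (log2 -0.41, SE 0.05, edgeR adjusted p = 2.06e-08). ABCC2 had 8.49, 7.05 and 6.04 CPM in H1650 SRSF2 libraries, against 9.38, 8.30 and 8.54 CPM in untreated libraries. The highest SRSF2 library of ABCC2 lay above the lowest untreated one (log2 -0.30, SE 0.08, edgeR adjusted p = 0.00293). Without H1650 SRSF2 replicate 3, the lowest library, the ABCC2 value was -0.18 (edgeR adjusted p = 0.0706) and 5 of the 10 genes were called. Groups without overlap and lower in SRSF2 cells were found for 32.6% of all genes tested in H1650.

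AKR1C3 had 45, 35 and 49 counts in H1650 SRSF2 libraries, against 125, 132 and 153 counts in untreated libraries (log2 -1.52, SE 0.12, edgeR adjusted p = 2.71e-13). AKR1C2 had 6, 8 and 10 counts in H1650 SRSF2 libraries, against 24, 19 and 26 counts in untreated libraries (log2 -1.37, SE 0.24, edgeR adjusted p = 4.82e-05). AKR1B10 had 6, 9 and 16 counts in H1650 SRSF2 libraries, against 24, 34 and 25 counts in untreated libraries (log2 -1.27, SE 0.24, edgeR adjusted p = 2.60e-05). The groups did not overlap for any of these, but on log2(FPKM + 1) with limma AKR1C2 was no longer called (-0.02, adjusted p = 0.291). In bulk RNA, fewer cells that express such a gene and less RNA per cell cannot be told apart.

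AKR1C1 had 57, 52 and 75 counts in H1650 SRSF2 libraries, against 71, 82 and 66 counts in untreated libraries, and the groups overlapped (log2 -0.11, SE 0.13, edgeR adjusted p = 0.531). ALDH1A1 averaged 0.690 ± 0.0545 CPM in H1650 SRSF2 and 0.548 ± 0.0689 CPM in untreated cells (log2 0.33, SE 0.20, edgeR adjusted p = 0.301). All 3 SRSF2 libraries of ALDH1A1 lay above all untreated ones, as for 32.1% of all genes tested in H1650, but the test was not passed. ALDH3A1, with 15 counts over the libraries of each treatment, had a log2 value of 0.14 (SE 0.42, edgeR adjusted p = 0.831), which became -0.07 without H1650 SRSF2 replicate 1. At these counts only large changes of the dehydrogenases were detectable in H1650.

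The make-up of the AKR1C counts differed by line and, far more in H1650 than in A549, by treatment. AKR1C1, AKR1C2 and AKR1C3 lie side by side on chromosome 10. In A549 libraries AKR1C1 made up 16.5 to 17.1% of their summed counts and AKR1C3 30.2 to 31.4%, with SRSF2 and untreated libraries overlapping. AKR1C2 took 51.9 to 52.6% in A549 SRSF2 and 52.9 to 53.2% in A549 untreated libraries, a small shift without overlap. AKR1C1 took 52.8 to 56.0% of the sum in H1650 SRSF2 libraries and 26.9 to 35.2% in untreated ones. AKR1C3 took 36.6 to 41.7% in H1650 SRSF2 libraries and 56.7 to 62.4% in untreated ones, and AKR1C2 at most 10.9% in any H1650 library. The ranges of AKR1C1 and AKR1C3 did not overlap between the H1650 groups. The summed level was 4.07 ± 0.459 CPM in H1650 SRSF2 and 7.66 ± 0.534 CPM in untreated cells, a log2 ratio of -0.91. In A549 the sum was 4654 ± 69.0 CPM in SRSF2 and 5477 ± 30.1 CPM in untreated cells, a log2 ratio of -0.23. Of the stretches of 100 bases in AKR1C2 transcripts, 23.1% also occur in another gene, as do 16.7% of those in AKR1C1 and 1.75% of those in AKR1C3. The split between AKR1C1 and AKR1C2 is therefore uncertain, since the authors' rule for reads that match both genes is not stated, while AKR1C3 is little affected.

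**Figure D4:**
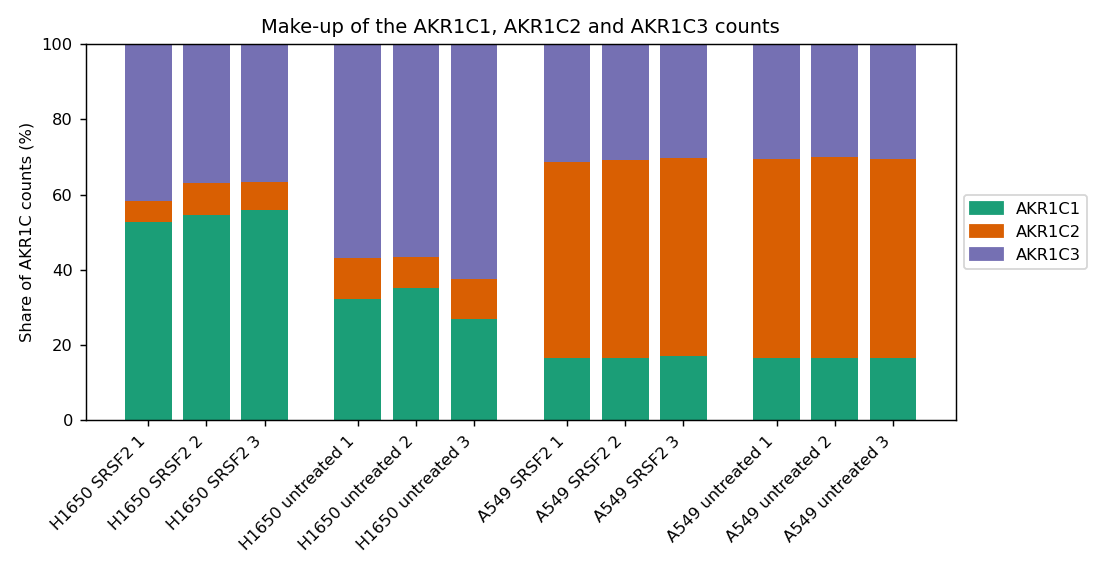
Share of AKR1C1 (green), AKR1C2 (orange) and AKR1C3 (purple) in their summed counts (y axis, percent) for each of the 12 libraries. The A549 bars differ little between treatments, while AKR1C1 takes 52.8% or more in H1650 SRSF2 libraries and at most 35.2% in untreated H1650 libraries.

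The SRSF2 effects of the 2 lines were compared directly as their difference, A549 minus H1650. It was called for 6 of the 10 genes, all positive, against 47.5% of all genes tested (24.0% positive and 23.5% negative). ABCC1 differed by 0.32 (SE 0.05, edgeR adjusted p = 1.60e-06), ABCC2 by 0.33 (SE 0.09, edgeR adjusted p = 0.0038) and ABCC3 by 0.43 (SE 0.07, edgeR adjusted p = 5.85e-06), so that all 3 pumps were relatively lower in H1650 SRSF2 cells. For ABCC1 both lines fell, by 9.74% in A549 and 27.6% in H1650. The ABCC2 difference was 0.21 (edgeR adjusted p = 0.0549) without H1650 SRSF2 replicate 3, and it was not called on log2(FPKM + 1) with limma (0.06, adjusted p = 0.0848).

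AKR1C3 differed by 1.31 (SE 0.12, edgeR adjusted p = 1.18e-10), AKR1C2 by 1.11 (SE 0.25, edgeR adjusted p = 0.00166) and AKR1B10 by 1.01 (SE 0.24, edgeR adjusted p = 0.00143). These differences set a small fractional fall at high levels in A549 beside a large fractional fall at low levels in H1650. On log2(FPKM + 1), which compresses low values, they had the opposite sign (-0.15, -0.23 and -0.20 in the same order). With limma on that scale 2 of the 10 genes were called positive and 7 negative, and on log2(FPKM + 0.1) 4 and 4. For AKR1C1, ALDH1A1 and ALDH3A1 the difference was -0.11 (SE 0.13), -0.49 (SE 0.20) and -0.73 (SE 0.43), with edgeR adjusted p = 0.570, 0.136 and 0.259. ALDH3A1 fell in A549, but its effect was not shown to differ between the lines.

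The wider pathway was described by 8 lists of related genes, 126 in all, of which 95 were tested. In A549, 14 of these rose and 31 fell, with a median log2 fold change of -0.07. In H1650, 23 rose and 48 fell, with a median of -0.25. These shares, and the counts of each list below, are read beside 32.3% and 62.3% of all genes called in the 2 lines. By direction, 16.4% of all genes were called higher and 15.9% lower in A549, and 31.0% higher and 31.3% lower in H1650.

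Of the other aldehyde dehydrogenases, 2 rose and 6 fell in A549, and 0 rose and 11 fell in H1650, of 14 tested (median log2 fold change -0.14 and -0.49). ALDH3A2, the fatty aldehyde dehydrogenase, averaged 343.8 ± 0.413 CPM in SRSF2 and 447.7 ± 13.5 CPM in untreated A549 cells (log2 -0.38, edgeR adjusted p = 3.10e-10). In H1650 it averaged 33.5 ± 1.60 CPM in SRSF2 and 90.3 ± 1.75 CPM in untreated cells (log2 -1.43, edgeR adjusted p = 2.11e-24). ALDH7A1, which acts in lysine breakdown, fell in both lines (log2 -0.22 in A549 and -0.57 in H1650).

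Of 10 other carbonyl and aldo-keto reductases, 2 rose and 1 fell in A549, and 2 rose and 4 fell in H1650. DHRS2 rose in both lines (log2 0.76 in A549 and 1.05 in H1650). AKR1B15 averaged 27.3 ± 1.61 CPM in SRSF2 and 22.3 ± 2.76 CPM in untreated A549 cells, so it rose while its close relative AKR1B10 fell (log2 0.29, edgeR adjusted p = 0.00707). It was not called in A549 without untreated replicate 1 (edgeR adjusted p = 0.0783) or on log2(FPKM + 0.1) with limma (adjusted p = 0.0567). AKR7A2, an aflatoxin aldehyde reductase, fell in both lines (log2 -0.37 in A549 and -0.25 in H1650). CBR4, a mitochondrial carbonyl reductase, fell in H1650 (log2 -0.57).

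Among 9 other glutathione transferases, 0 rose and 2 fell in A549, and 2 rose and 6 fell in H1650. GSTA4, which acts on the lipid peroxidation product hydroxynonenal, averaged 10.95 ± 0.533 CPM in SRSF2 and 14.2 ± 0.245 CPM in untreated A549 cells (log2 -0.38, edgeR adjusted p = 0.00505). It was also called lower in H1650, at the low levels of 0.169 ± 0.0494 CPM in SRSF2 and 0.662 ± 0.281 CPM in untreated cells (log2 -1.93, edgeR adjusted p = 7.34e-05). MGST1, a membrane-bound transferase, averaged 132.0 ± 6.11 CPM in SRSF2 and 157.6 ± 2.61 CPM in untreated H1650 cells (log2 -0.25, edgeR adjusted p = 6.99e-07). GSTO1 rose in H1650 (log2 0.34) and GSTO2 fell there (log2 -0.64).

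Of 10 other efflux transporters, 0 rose and 3 fell in A549, and 3 rose and 6 fell in H1650. ABCG2, the breast cancer resistance protein, averaged 127.9 ± 2.26 CPM in SRSF2 and 146.6 ± 5.14 CPM in untreated A549 cells (log2 -0.20, edgeR adjusted p = 4.10e-04). It averaged 20.5 ± 1.04 CPM in SRSF2 and 26.95 ± 0.951 CPM in untreated H1650 cells (log2 -0.40, edgeR adjusted p = 1.92e-07). ABCC5, a pump for cyclic nucleotides, fell by 0.24 in A549 and by 0.72 in H1650 on the log2 scale.

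Cytochromes P450 and other oxidoreductases moved in both directions: of 22 tested, 1 rose and 10 fell in A549, and 6 rose and 9 fell in H1650. AOX1, aldehyde oxidase, rose in both lines, averaging 9.40 ± 0.768 CPM in SRSF2 and 5.42 ± 0.213 CPM in untreated A549 cells (log2 0.79, edgeR adjusted p = 1.71e-07). In H1650 AOX1 averaged 50.3 ± 4.14 CPM in SRSF2 and 8.73 ± 0.647 CPM in untreated cells (log2 2.52, edgeR adjusted p = 2.23e-24). CYP4F3, a leukotriene hydroxylase, fell in both lines (log2 -0.58 in A549 and -1.35 in H1650). POR, the electron donor of microsomal P450 enzymes, also fell in both (log2 -0.11 in A549, edgeR adjusted p = 0.0297, and -0.56 in H1650).

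Of 9 conjugating enzymes tested, 2 rose and 3 fell in A549, and 2 rose and 3 fell in H1650. SULT2B1, a sterol sulfotransferase, averaged 13.01 ± 0.575 CPM in SRSF2 and 20.5 ± 1.88 CPM in untreated A549 cells (log2 -0.65, edgeR adjusted p = 9.14e-09). It averaged 25.2 ± 1.03 CPM in SRSF2 and 60.2 ± 1.68 CPM in untreated H1650 cells (log2 -1.25, edgeR adjusted p = 6.15e-19).

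Among 15 genes of NRF2 control and glutathione supply, 5 rose and 6 fell in A549, and 6 rose and 6 fell in H1650. NFE2L2, which encodes NRF2, averaged 179.0 ± 2.64 CPM in SRSF2 and 150.0 ± 2.66 CPM in untreated A549 cells (log2 0.25, edgeR adjusted p = 3.75e-06). It averaged 194.0 ± 7.0 CPM in SRSF2 and 150.5 ± 5.79 CPM in untreated H1650 cells (log2 0.37, edgeR adjusted p = 4.90e-10). KEAP1, its inhibitor, averaged 134.2 ± 3.62 CPM in SRSF2 and 157.7 ± 3.78 CPM in untreated A549 cells (log2 -0.23, edgeR adjusted p = 2.76e-05), and fell by 0.37 in H1650 on the log2 scale. NFE2L2 transcripts rose and KEAP1 transcripts fell in both lines. The 10 enzyme and pump genes fell or did not pass the test, and GSTP1 and ALDH3A1 were near the counting floor in H1650. NRF2 activity was not measured, and a link between these changes was not tested.

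MAFF, a small MAF partner of NRF2, rose most of the list, averaging 28.4 ± 1.14 CPM in SRSF2 and 11.4 ± 1.46 CPM in untreated A549 cells (log2 1.32), and 298.1 ± 26.1 CPM in SRSF2 and 65.1 ± 3.67 CPM in untreated H1650 cells (log2 2.19). SQSTM1, the autophagy receptor that binds KEAP1, also rose (log2 0.44 in A549 and 1.09 in H1650). GSR, glutathione reductase, fell in both lines (log2 -0.31 in A549 and -0.67 in H1650), as did GCLC, the catalytic subunit of the first enzyme of glutathione synthesis (log2 -0.32 in A549 and -0.33 in H1650).

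Of 6 xenobiotic receptor genes, 2 rose and 0 fell in A549, and 2 rose and 3 fell in H1650. AHR, the dioxin receptor, rose by 0.63 in A549 and by 0.38 in H1650, and NR3C1, the glucocorticoid receptor, rose by 0.31 and 0.62 in the same lines, all on the log2 scale. RXRA, the partner of many nuclear receptors, fell by 0.82 in H1650 on the log2 scale.

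**Figure D5:**
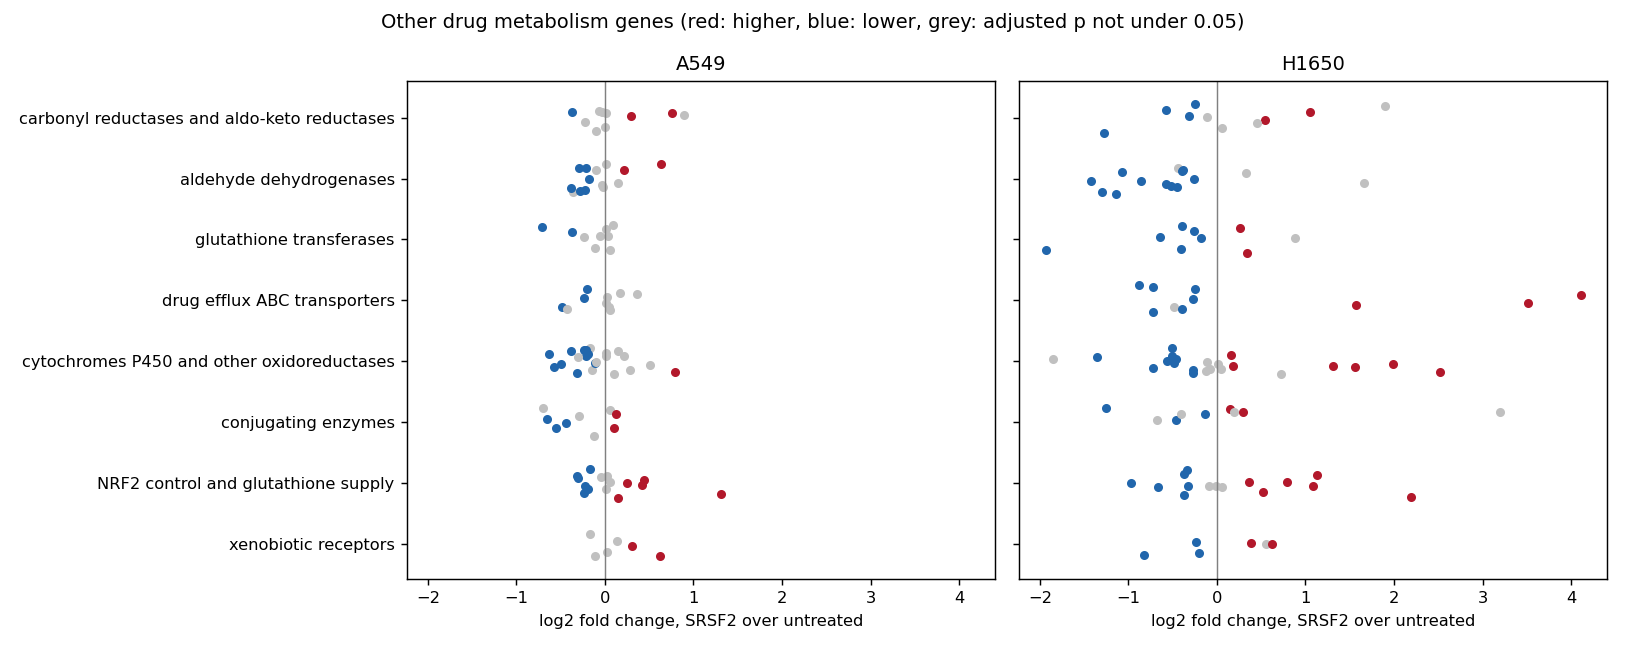
Log2 fold change, SRSF2 over untreated (x axis), of each gene tested in the 8 wider lists (rows) in A549 (left panel) and H1650 (right panel). Red points were called higher, blue points lower, and grey points did not pass an edgeR adjusted p of 0.05. Of 14 aldehyde dehydrogenases, 0 are red and 11 blue in H1650, beside 31.0% called higher and 31.3% lower over all genes tested.

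The genes whose levels moved most like a given gene were ranked by Pearson correlation of log2(CPM + 0.5) over the 12 libraries after the mean of each line was subtracted, among 10935 genes with at least 5 CPM on average. All genes share the same treatment contrast and the same differences in depth between libraries, so these values are a description. Nearest to ABCC1 were MLEC (0.995), ROBO1 (0.995) and XPO7 (0.994). AKR1C3 was nearest to PKP4 (0.994), DNAJC11 (0.992) and CMTM4 (0.99), and ALDH3A1 to MYBL2 (0.982), DNM2 (0.973) and XYLT1 (0.963). None of the 10 genes was among the 3 nearest of another. Within A549 alone, the 8 genes called lower there correlated with each other at 0.941 to 0.995. ABCC2 and ABCC3 correlated with those genes at -0.711 to 0.086. The genes called lower share the fall with SRSF2, so these values too are a description.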

How the data were processed

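Polyadenylated RNA of 12 libraries was counted per gene by the authors, who deposited the raw counts. The submitters' processing notes name featureCounts 2.0.0, STAR 2.7.7a, fastp 0.20.1 and the build GRCh38. The annotation, the use of strand and the treatment of reads matching several genes are not given in the sources used here. The FPKM values deposited by the authors equal these counts scaled by column total and a gene length (largest relative difference 8.0e-13). That length is the genomic span, introns included, for 11519 of 16139 genes, so FPKM served in alternatives only.

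Tests on the counts used edgeR 4.0.16 (R 4.3.3) with a quasi-likelihood fit, filterByExpr over 4 groups, TMM, 1 mean per group, 8 residual degrees of freedom, and Benjamini-Hochberg adjustment over 15991 genes. Calls were made at an adjusted p below 0.05. Alternatives were DESeq2 1.42.0, limma 3.58.1 on log2(FPKM + 1) and log2(FPKM + 0.1), other scalings and filters, the compared groups alone, the replicate number as a block, each library left out in turn, and summed AKR1C genes. The code was tested on simulated data. No 2 replicates agreed within sampling noise (chi-square per degree of freedom 2.29 or more, and 5.31 to 8.11 between H1650 SRSF2 libraries). Symbols came from a gene name table (16076 IDs) and GENCODE 29 (63 IDs), and coordinates from GENCODE 29.

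The genes, lists and alternatives were chosen with earlier results of these data known. From each wider list, the rule took up to 2 genes per direction and line with the smallest adjusted p among called genes with at least 5 CPM in the higher group, plus NFE2L2 and KEAP1. Some genes the rule gives are not named in the text, and 1 of them is not reported here.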

Additional observations from a re-analysis of the deposited data

Results flagged for a closer look

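The SRSF2 effect differed between the lines, by the test of the difference itself (log2 effect in A549 minus that in H1650, edgeR adjusted p under 0.05), for 6 of the 10 genes, beside 47.5% of all genes tested. The differences were 1.31 for AKR1C3, 1.11 for AKR1C2, 1.01 for AKR1B10, 0.43 for ABCC3, 0.33 for ABCC2 and 0.32 for ABCC1. The first 3 rest on at most 153 counts per H1650 library and had the opposite sign on log2(FPKM + 1).

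Among the genes of the wider lists, ALDH1A3, CYP24A1 and GSTM4 had calls in opposite directions in the lines, and their differences were tested too. ALDH1A3, a retinal dehydrogenase, averaged 14.3 ± 0.416 CPM in SRSF2 and 12.3 ± 0.265 CPM in untreated A549 cells, and 14.95 ± 0.324 CPM in SRSF2 and 36.8 ± 1.15 CPM in untreated H1650 cells (difference 1.51, edgeR adjusted p = 8.34e-15). CYP24A1, the vitamin D hydroxylase, averaged 1353 ± 68.0 CPM in SRSF2 and 1762 ± 75.3 CPM in untreated A549 cells, and 8.70 ± 2.68 CPM in SRSF2 and 2.23 ± 0.408 CPM in untreated H1650 cells (difference -2.37, edgeR adjusted p = 7.35e-14). GSTM4 averaged 6.10 ± 0.743 CPM in SRSF2 and 9.99 ± 0.399 CPM in untreated A549 cells, and 8.97 ± 0.827 CPM in SRSF2 and 7.52 ± 1.03 CPM in untreated H1650 cells (difference -0.96, edgeR adjusted p = 4.35e-06). Reads of GSTM4 may be shared with other mu-class genes.

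Some of the within-line calls behind these differences did not hold when a library was left out. The rise of ALDH1A3 in A549 was not called without untreated replicate 1, SRSF2 replicate 1 or SRSF2 replicate 3 (edgeR adjusted p = 0.0743, 0.0615 and 0.0605). The rise of GSTM4 in H1650 was not called without untreated replicate 2, untreated replicate 3 or SRSF2 replicate 3 (edgeR adjusted p = 0.0894, 0.247 and 0.225). DESeq2 did not call the rise of ALDH1A3 (adjusted p = 0.0577) or the fall of CYP24A1 (adjusted p = 0.0906) in A549, nor the rise of GSTM4 in H1650 (adjusted p = 0.0697).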

How the results depend on the processing

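Over the alternatives tried, 805 recomputed values of the 10 genes kept their direction and their side of the threshold, 6 lost a call, 8 gained one and 9 changed sign, across 5 comparisons. On log2(FPKM + 1) with limma, the difference between lines was -0.2041 for AKR1B10, -0.2328 for AKR1C2 and -0.1537 for AKR1C3, and on log2(FPKM + 0.1) it was -0.061 for AKR1C2 and, no longer called, 0.1471 for AKR1B10 (adjusted p = 0.213). On log2(FPKM + 1), ABCC2 was called neither in H1650 (adjusted p = 0.142) nor for the difference (adjusted p = 0.0848). A pseudocount shrinks the fold changes of low values by construction. The value of ABCC3 in A549 was -0.0024 with DESeq2 size factors and -0.0024 in the DESeq2 test, and lay between -0.0292 and 0.0615 when single libraries were left out. ALDH3A1 in H1650 lay between -0.071 and 0.2555 in the same way, with the lowest value without SRSF2 replicate 1. The 8 genes called in A549 numbered 8 under every alternative, those called in H1650 numbered 4 to 6, and those called for the difference 5 to 9 (2 positive and 7 negative on log2(FPKM + 1), 4 and 4 on log2(FPKM + 0.1)). The replicate numbers did not pair the libraries (correlations of residuals of -0.022 to 0.059), and with the replicate block 5185 genes were called in A549, 9936 in H1650 and 7624 for the difference, against 5162, 9957 and 7601 without it. Upper quartile scaling moved the median of all genes between the untreated lines to -0.13. With AKR1C1, AKR1C2 and AKR1C3 summed, the fall in H1650 was -0.91, between the separate values of these genes. At fewer than 20 counts per library, as for ALDH3A1 and GSTP1 in H1650, only large changes were detectable.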

Other observations

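The wider lists also differed between the untreated lines, H1650 against A549. Of 9 other glutathione transferases, 1 was higher and 8 lower in H1650, and of 15 genes of NRF2 control and glutathione supply, 3 were higher and 11 lower, beside 40.1% higher and 42.3% lower over all genes. Of 10 other efflux transporters 3 were higher and 7 lower, with a median log2 fold change of -2.35, and of 22 oxidoreductases 7 were higher and 13 lower. In the other lists, 4 of 10 carbonyl and aldo-keto reductases were higher and 5 lower (median 0.01), 4 of 14 other aldehyde dehydrogenases higher and 8 lower (median -0.33), 4 of 9 conjugating enzymes higher and 5 lower (median -0.46), and 1 of 6 xenobiotic receptors higher and 3 lower (median -0.24). GSR averaged 42.8 ± 1.81 CPM in untreated H1650 and 582.3 ± 2.88 CPM in untreated A549 cells (SD, n = 3). GCLC averaged 40.8 ± 1.70 CPM in H1650 and 451.6 ± 7.34 CPM in A549, and UGDH, which makes the sugar donor for glucuronidation, 77.0 ± 1.19 CPM in H1650 and 554.3 ± 9.10 CPM in A549. NFE2L2 itself was alike, with 150.5 ± 5.79 CPM in untreated H1650 and 150.0 ± 2.66 CPM in untreated A549 cells. AHR was higher in H1650, with 183.9 ± 12.4 CPM against 65.6 ± 1.67 CPM in A549. These genes were named by the rule for the SRSF2 comparisons and are given here as values.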
